A study of Drosophila melanogaster with 9 samples.

Results

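H3K27me3 peaks on the Y chromosome of Drosophila melanogaster were taken as all entries placed on the sequence named Y in the deposited broad peak lists of larvae of the third instar. They numbered 775 of 42221 peaks over 6 libraries. There were 2 libraries each from wild-type females, from males of genotype roX1[ex6]roX2[9-4], which lack both roX RNAs (here called roX knockout males), and from wild-type males. All flies were kept at 25 °C, and ground larval tissue was used, so that each list mixes the cell types of the larva. The labels name no strain for the wild type. Peaks on unplaced scaffolds assigned to Y were not counted as Y peaks. The labels do not say whether the libraries of a group came from separate animals, so the spread within a group may be technical.

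H3K27me3 is the histone mark written by Polycomb repressive complex PRC2 and is typical of repressed developmental genes in euchromatin. The Y chromosome of Drosophila is almost wholly heterochromatic, is built largely of transposons and satellite repeats, and carries few genes, most of them needed only for making sperm. The roX RNAs are noncoding parts of the MSL complex, which raises transcription from the single male X. Females have no Y, so peaks listed there in females give the background of the assay on this sequence. Much of Y is repeated within Y and elsewhere in the genome. How reads that map to several places were treated is not given in the sources used here, so positions inside repeat families are uncertain.

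The Y carried far fewer peaks in females than in males, and fewer in knockout than in wild-type males. The gap between the male groups was 10 peaks, against 49 between the wild-type male libraries. The lists held 30 and 40 Y peaks in wild-type females, 147 and 163 in roX knockout males, and 222 and 173 in wild-type males. The 3 groups did not overlap. Merged peaks covered 25.2 and 30.4 kb of Y in females, 166 and 167 kb in knockout males, against 301 and 236 kb in wild-type males. The knockout libraries were nearly equal, whereas the wild-type male libraries lay 65.8 kb apart, almost as far as the gap of 69.0 kb between the knockout and wild-type males.

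**Figure D1:**
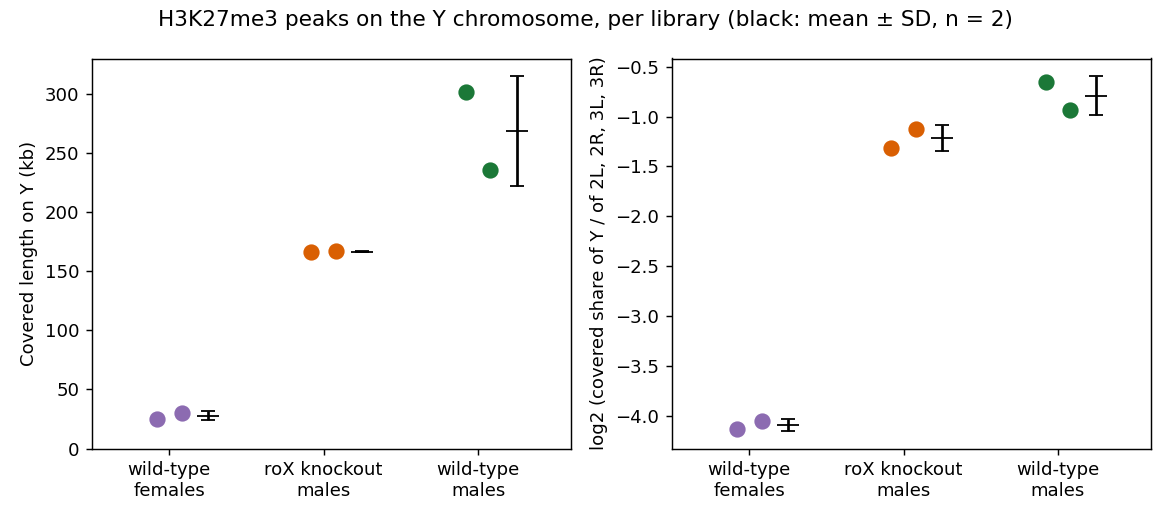
Left, length of Y under H3K27me3 peaks in kb for each library (dots) with the group mean ± SD (black, n = 2); right, log2 of the covered share of Y over that of the 4 large autosomal arms. The groups do not overlap in either panel, with females lowest (25.2 and 30.4 kb) and wild-type males highest (301 and 236 kb).

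As a share of the 3.67 Mb of Y up to the end of its last annotated gene, cover was 0.758% ± 0.101 in females, 4.54% ± 0.00955 in knockout males and 7.32% ± 1.27 in wild-type males (SD, n = 2 each). The knockout mean was 0.620 times the wild-type male mean, a log2 ratio of -0.69 (exact permutation p = 0.33, two-sided). That is the smallest p that 2 libraries against 2 can give. The female mean was 0.104 times that of wild-type males and 0.167 times that of knockout males, with the same p.

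Lower cover in knockout males was not limited to Y. Cover of 2L, 2R, 3L and 3R together was 10.6% ± 0.945 in knockout and 12.6% ± 0.481 in wild-type males, a ratio of 0.840, and the ratio was 0.679 on chromosome 4 and 0.346 on X. Relative to the large autosomal arms of the same library, the covered share of Y was -1.22 ± 0.13 on the log2 scale in knockout and -0.79 ± 0.20 in wild-type males. The difference of -0.43 had no overlap between groups, but the gap of 0.19 was smaller than the 0.28 between the wild-type male libraries (exact permutation p = 0.33, two-sided). With lists of equal total length that difference was -0.08 (exact permutation p = 0.67, two-sided). Relative to chromosome 4, the other largely heterochromatic chromosome, the groups overlapped, at -1.44 ± 0.16 in knockout and -1.32 ± 0.21 in wild-type males. Relative to X the order turned round, at 1.04 ± 0.23 in knockout and 0.18 ± 0.19 in wild-type males (exact permutation p = 0.33, two-sided).

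The lower Y cover in knockout males depended on how the lists were set level with each other. When each list was shortened to the same total length by descending −log10 p, the Y kept 147 and 167 kb in knockout males, against 159 and 148 kb in wild-type males, so that the groups overlapped and the log2 ratio was 0.03 (exact permutation p = 1, two-sided). That step kept 68.5% and 100% of the knockout peaks and 30.1% and 34.1% of the wild-type male peaks. The number of Y peaks was then 120 and 163 in knockout and 111 and 93 in wild-type males, the reverse of the order in the full lists. With a −log10 q of 3 or more required of each peak, Y cover was 60.6 and 62.2 kb in knockout and 126 and 90.7 kb in wild-type males, a log2 ratio of -0.82. Cover of the large autosomal arms at that limit was 5.05% and 3.97% in knockout and 7.96% and 7.64% in wild-type males. The difference in the log2 ratio of Y to these arms was then 0.00 (exact permutation p = 1, two-sided). Females stayed lowest, at 19.2 and 15.8 kb in the shortened lists and at 7.68 and 9.37 kb at the stricter limit.

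Y peaks were short in every group. Their median width was 706 and 698 bp in females, 852 and 754 bp in knockout males, against 899 and 910 bp in wild-type males. In each library this was below the median on the large autosomal arms. Those medians were 860 and 888 bp in females, 963 and 852 bp in knockout males, against 1016 and 1051 bp in wild-type males. The widest Y peak measured 2949 and 2329 bp in females, 4651 and 3966 bp in knockout males, against 7208 and 6110 bp in wild-type males. Y peaks wider than 2 kb numbered 3 and 2 in females, 24 and 17 in knockout males, against 49 and 37 in wild-type males. A larger share of Y peaks than of autosomal peaks passed a stricter limit of q in each library. This held in females too, which have no Y, so passing the limit does not set a Y peak apart from the background. A −log10 q of at least 3 was reached by 30.0% and 22.5% of Y peaks in females, 29.9% and 28.2% in knockout males, against 40.5% and 34.7% in wild-type males. Of the peaks on the large autosomal arms, 7.40% and 7.20% did so in females, 10.7% and 8.75% in knockout males, against 17.2% and 15.9% in wild-type males.

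Covered sequence on Y recurred between libraries, though less than on the autosomes. The overlap in bases between replicates (Jaccard index, shared over joint bases) was 0.389 in females, 0.447 in knockout males and 0.559 in wild-type males on Y, against 0.455, 0.549 and 0.715 on the large autosomal arms. Between knockout and wild-type males it was 0.39 to 0.428 on Y. Between females and males it was 0.0573 to 0.0883. Of the 381 kb of Y covered in any male library, 76.4 kb (20.1%) was covered in all 4, 78.0 kb in 3, 104 kb in 2 and 122 kb in 1. Overlapping peaks of the 6 lists merged into 250 loci. Of these, 86 had a peak in all 4 male libraries, 25 had one in each wild-type male list but in no knockout list, 5 had the opposite pattern, and 65 had a peak in 1 library only. Loci were not counted on the main arms, so these counts have no share there to be set against. Bins of 10 kb on the main arms also leaned to lower in knockout males, with 29.1% lower and 12.6% higher.

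Of the 193 kb that both wild-type male lists covered, 39.7% was covered in both knockout libraries, 30.8% in one and 29.5% in neither. The share in neither was 59.4% for X, 22.4% for chromosome 4 and 17.6% for the large autosomal arms, so that Y lay between X and the other chromosomes. These shares come from the full lists and were not taken from lists of equal total length. Replicates of each male group also overlapped less on Y than on the large autosomal arms, as given above. In the other direction, of the 103 kb of Y covered in both knockout libraries, 74.3% was also covered in both wild-type male lists and 7.45% in neither. The corresponding shares for the large autosomal arms were 86.7% and 6.43%.

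**Figure D2:**
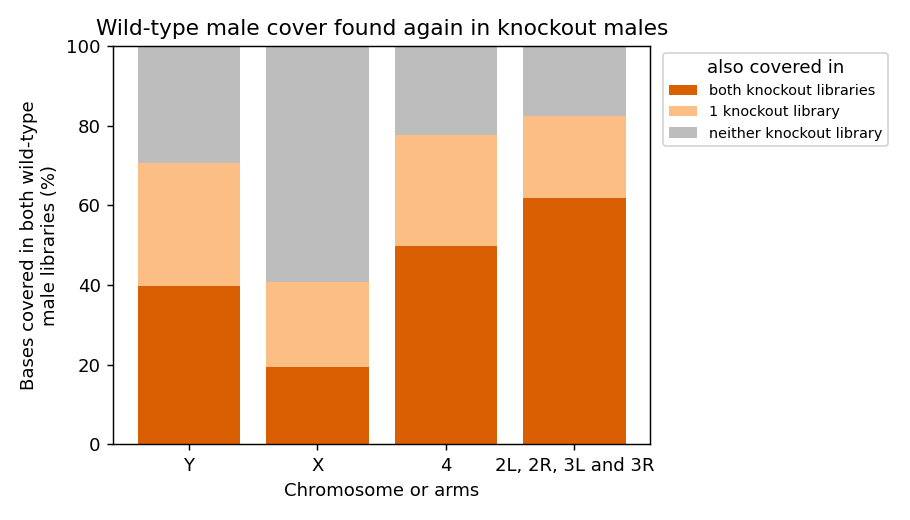
Bases covered by peaks in each of the wild-type male lists, split by whether they were also covered in both, 1 or neither roX knockout library, for Y, X, chromosome 4 and the large autosomal arms (percent of those bases). In the full lists, the part found in neither knockout library is 29.5% for Y, 59.4% for X and 17.6% for the large autosomal arms.

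Cover was spread along most of Y but was far from even. Of 37 windows of 100 kb, 35 had a peak in at least 1 male library. In 24 of these 35 both knockout libraries were below both wild-type male libraries, and in 2 they were above. On the 6 main arms, X, 2L, 2R, 3L, 3R and 4, 36.8% of such windows were lower and 20.3% higher in knockout males by the same rule. In knockout males the densest window was the 10th (900001 to 1000000, build dm6), with 5.51 and 5.48 kb in females, 24.5 and 24.4 kb in knockout males, against 26.6 and 25.7 kb in wild-type males. The 9th (800001 to 900000), which had the same mean of 26.2 kb in wild-type males as the 10th, had 0 kb in both female libraries, 18.8 and 20.4 kb in knockout males, against 29.6 and 22.7 kb in wild-type males. A separate dense stretch was the 32nd window (3100001 to 3200000), with 2.43 and 3.95 kb in females, 14.9 and 13.1 kb in knockout males, against 23.0 and 19.6 kb in wild-type males. The 27th window (2600001 to 2700000) had the largest difference between the male groups, at 8.01 and 10.5 kb in knockout and 20.7 and 17.3 kb in wild-type males. The 12th and 37th windows had no peak in any library.

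**Figure D3:**
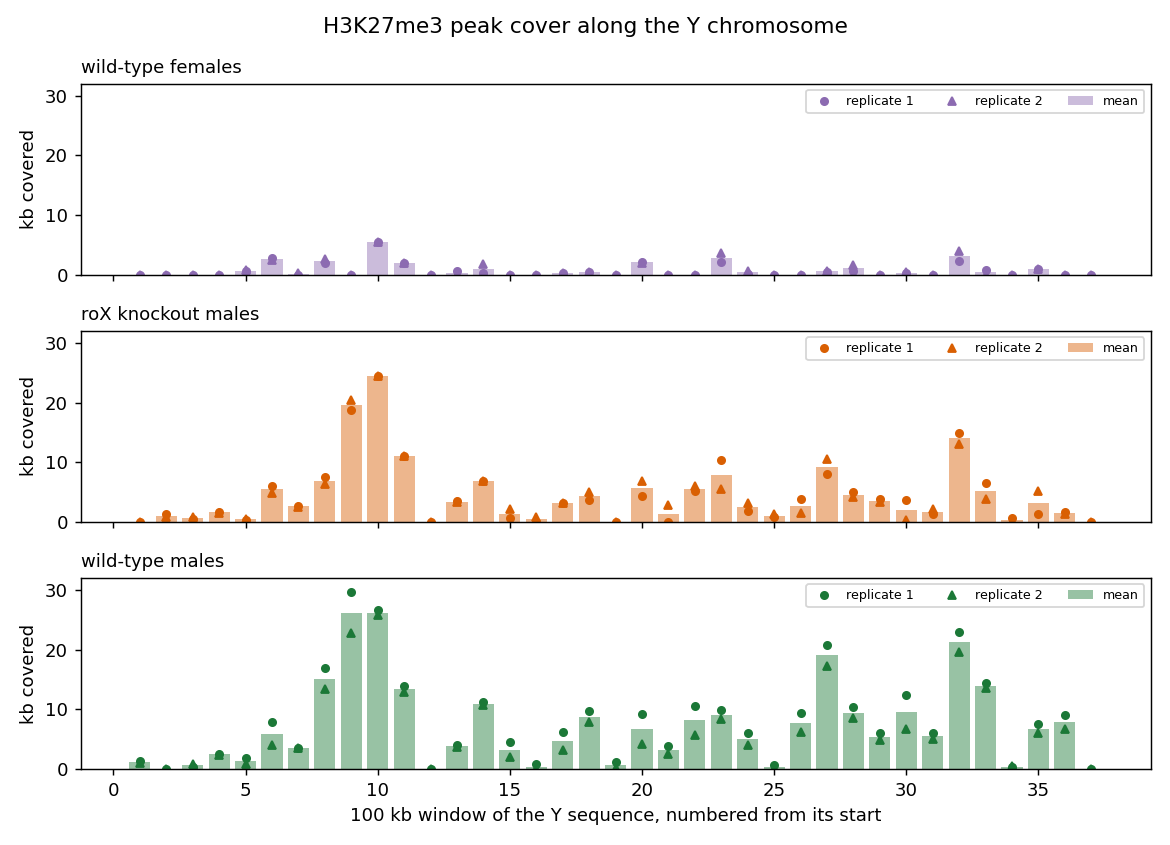
Kilobases under H3K27me3 peaks in each 100 kb window along Y, numbered from the start of the sequence, for wild-type females, roX knockout males and wild-type males (bars, group means; symbols, single libraries). The windows around the 9th and 10th are the densest in both male groups, with 24.5 and 24.4 kb in knockout and 26.6 and 25.7 kb in wild-type males in the 10th.

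In bins of 10 kb, 168 on Y held a peak in at least 1 male library. Both knockout libraries were below both wild-type male libraries in 69 (41.1%) and above in 13 (7.74%). Over the main arms 29.1% of 6099 such bins were lower and 12.6% higher, and by chromosome the lower share was 26.7% on the large autosomal arms, 50.7% on chromosome 4 and 56.0% on X. With limma on the covered percent of all bins, 3 of the 168 Y bins were lower at a Benjamini-Hochberg adjusted p under 0.05 and 0 higher. At an unadjusted p under 0.05, 30 were lower and 8 higher. Of the 6099 main-arm bins limma called 3.16% lower and 0.361% higher, so at the adjusted p the share called lower was not larger on Y. At an unadjusted p under 0.05, 972 of the 6099 main-arm bins were lower and 322 higher, against 30 and 8 of the 168 Y bins. There the lower share was slightly larger on Y, so the order turned with the threshold. The counts of lower and higher bins depended on the length of the lists, with 25 lower against 22 higher of 145 Y bins in lists of equal total length. The main-arm share in those lists was not taken, so this split has no background beside it. Counts with 1 library left out could only rise or stay, since 1 library against 2 meets the rule more easily. With the replicate number as a block, limma called 0 Y bins in either direction, while 27 were lower and 2 higher at an unadjusted p under 0.05. With the block it called 0% of main-arm bins, while 840 of them were lower and 192 higher at an unadjusted p under 0.05. The 3 bins are named because they were called without the block, after their values were seen.

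None of the 3 bins holds an annotated gene. The bin from 2660001 to 2670000 was covered over 27.3% and 25.7% in knockout males and over 59.3% and 58.5% in wild-type males (difference -32.4 percentage points, limma adjusted p = 0.0247), with no peak in females. The bin from 2990001 to 3000000 had no peak in knockout males or females and was covered over 21.5% and 21.1% in wild-type males (limma adjusted p = 0.0274). The bin from 740001 to 750000 was covered over 9.05% and 6.73% in knockout and over 31.5% and 32.3% in wild-type males (difference -24.0 points, limma adjusted p = 0.0354), with 2.34% and 9.79% in females. In each of the 3 bins the libraries of a male group lay within 3 percentage points of each other. Close libraries are part of what gives a small limma p, so this is no separate support for these bins.

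The gene table placed 113 entries on the assembled Y, of which 23 were protein-coding, 28 lncRNAs and 62 pseudogenes. A further 10 entries assigned to unplaced Y scaffolds were not used. A peak touched 35 of the 113 in at least 1 male library and 4 in at least 1 female library. In single libraries 4 entries were touched in each female list, 23 and 24 in knockout males, against 31 and 30 in wild-type males. Among the 35, cover of the body was lower in both knockout than in both wild-type male libraries in 10 (28.6%) and higher in 0. That split did not hold throughout. Lists of equal total length gave 6 lower and 3 higher of 29 genes, with no main-arm share taken in those lists. With 1 library left out the counts could only rise or stay, since 1 library against 2 meets the rule more easily. Over genes of all kinds on the main arms 25% of 3350 were lower and 8.54% higher. With a gene counted as marked when peaks covered 50% or more of it, 3 of the 35 were marked in both wild-type male and no knockout libraries and 0 the other way, against 6.66% and 0.627% of genes on the main arms. With limma 0 Y genes passed an adjusted p of 0.05 and 3 were lower at an unadjusted p under 0.05. On the main arms 3.91% of genes were called lower and 0.567% higher. At an unadjusted p under 0.05, 440 of the 3350 were lower and 111 higher. With the replicate number as a block, limma again called 0 Y genes, against 0.955% lower and 0.0896% higher on the main arms. At an unadjusted p under 0.05 the block gave 3 lower Y genes, against 338 lower and 67 higher on the main arms.

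The named protein-coding genes of Y, the male fertility genes among them, were covered more sparsely than Y as a whole. They are the very long genes for the axonemal dynein heavy chains kl-2, kl-3 and kl-5, whose products drive the sperm tail, together with ORY and CCY, whose loss also sterilises males, the WD-repeat gene WDY, and PRY, ARY, Ppr-Y, Pp1-Y1, Pp1-Y2 and FDY. Their summed bodies were covered over 0.484% and 0.645% in females, 1.93% and 1.81% in knockout males, with 3.44% and 2.38% in wild-type males. The whole Y span stood at 0.687% and 0.829% in females, 4.53% and 4.54% in knockout males, with 8.22% and 6.43% in wild-type males. Of these 12 genes, 5 had a peak in all 4 male libraries and 7 in none, the shortest of the 5 being 91.1 kb long, and the highest cover of a body in any library was 5.21%. WDY (2273422 to 2487777) was covered over 0.340% and 1.17% in females, 3.35% and 2.98% in knockout males, against 5.21% and 4.00% in wild-type males. Ppr-Y (1636574 to 1884846) was covered over 0.327% and 0.310% in females, 1.64% and 2.15% in knockout males, against 4.55% and 3.40% in wild-type males. In both genes the knockout and wild-type male libraries did not overlap. By the same rule 25% of genes on the main arms were lower and 8.54% higher. With 2 lower genes of the 5 that had a peak, the numbers are too small to set apart from that share. Neither gene was called by limma, with or without the replicate number as a block.

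In each of the 3 dynein genes the knockout and wild-type male libraries overlapped. kl-3 (336381 to 563165) was covered over 1.24% and 1.06% in females, 2.6% and 1.90% in knockout males, against 4.54% and 2.21% in wild-type males. kl-2 (573088 to 664173) was at 0.648% and 0.984% in females, 1.36% and 1.74% in knockout males, against 1.12% and 1.45% in wild-type males. kl-5 (22250 to 137486) had no peak in females and was at 1.16% and 0.750% in knockout and 1.16% and 0.848% in wild-type males. ORY, CCY, PRY, ARY, Pp1-Y1, Pp1-Y2 and FDY had no peak in any of the 6 libraries. The bodies of all protein-coding genes together make up 28.0% of the Y span but held 11.9% and 11.1% of the covered bases in knockout males, against 11.8% and 10.4% in wild-type males. In females they held 19.6% and 21.6%.

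The Su(Ste) repeats carried the densest cover of any gene family on Y. Su(Ste), or Suppressor of Stellate, is a tandem family of noncoding copies whose transcripts give rise to the piRNAs that silence the X-linked Stellate genes in the male germline. Copies are nearly alike in sequence, so the assignment of reads among them is uncertain. Of 27 copies on the assembled Y, a peak touched 0 in both female libraries, 12 and 14 in knockout males, against 16 and 15 in wild-type males. At least 50% of the body was covered in 8 and 7 copies in knockout males and in 10 and 10 in wild-type males. In all 4 male libraries 12 copies had a peak and 6 were covered over at least 50%. Summed over the family, their bodies were covered over 30.4% and 29.7% in knockout males, against 38.0% and 34.0% in wild-type males.

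**Figure D4:**
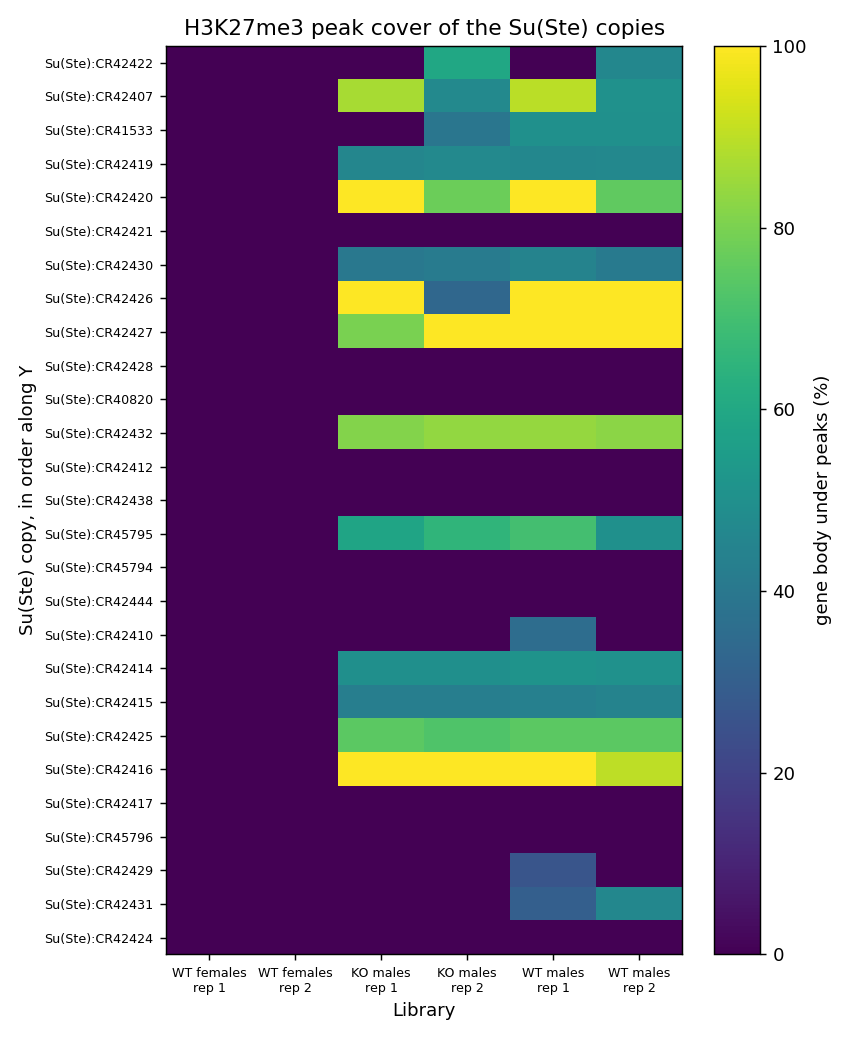
Percent of the body under H3K27me3 peaks for each of the 27 Su(Ste) copies (rows, in order along Y) in each of the 6 libraries (columns). The female columns are at 0 throughout, and 12 copies have a peak in all 4 male libraries.

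Some copies had nearly the same cover in all 4 male libraries. Su(Ste):CR42416 (1035827 to 1036823) was covered over 100% and 100% in knockout and 100% and 89.9% in wild-type males. Su(Ste):CR42432 (979530 to 980284) was covered over 81.3% and 83.7% in knockout and 84.4% and 82.6% in wild-type males. Of the 17 copies with a peak in at least 1 male library, 4 were lower in both knockout libraries and 0 higher, a share near the 25% of main-arm genes that were lower, while 8.54% of those were higher. Su(Ste):CR41533 (896183 to 897725) was among them, at 0% and 39.2% in knockout and 50.1% and 50.2% in wild-type males. Su(Ste):CR42431 (2562678 to 2563924), from a small group of copies away from the main array, was at 0% and 0% in knockout and 30.2% and 46.4% in wild-type males. The other 2 differed little. Su(Ste):CR42414 was at 49.6% and 49.9% in knockout and 51.5% and 50.6% in wild-type males, and Su(Ste):CR42415 at 42.6% and 42.9% in knockout and 43.5% and 44.7% in wild-type males. Su(Ste):CR42426 (934058 to 935745) had the largest difference in mean covered bases among the copies, but the groups overlapped, at 100% and 33.5% in knockout and 100% and 100% in wild-type males.

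Between the first and last copy of the main array (869892 to 1040412) peaks covered 4.39% ± 0.00581 of the sequence in females, 25.2% ± 0.756 in knockout males and 28.2% ± 1.57 in wild-type males (SD, n = 2 each). That stretch is 4.65% of the Y span. It held 29.8% and 24.6% of the Y cover in females, 25.3% and 26.3% in knockout males, against 16.6% and 19.6% in wild-type males. The knockout mean was 0.891 times the wild-type male mean inside the array and 0.560 times outside it. As a log2 ratio of cover inside to outside, the array stood at 3.12 and 2.74 in the female libraries, at 2.83 ± 0.05 in knockout and at 2.18 ± 0.21 in wild-type males. The difference of 0.66 between the male groups had a gap of 0.47 without overlap (exact permutation p = 0.33, two-sided). With lists of equal total length the difference turned to -0.13, the ratio being 0.954 inside and 1.05 outside. The array was set apart after its values were seen.

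**Figure D5:**
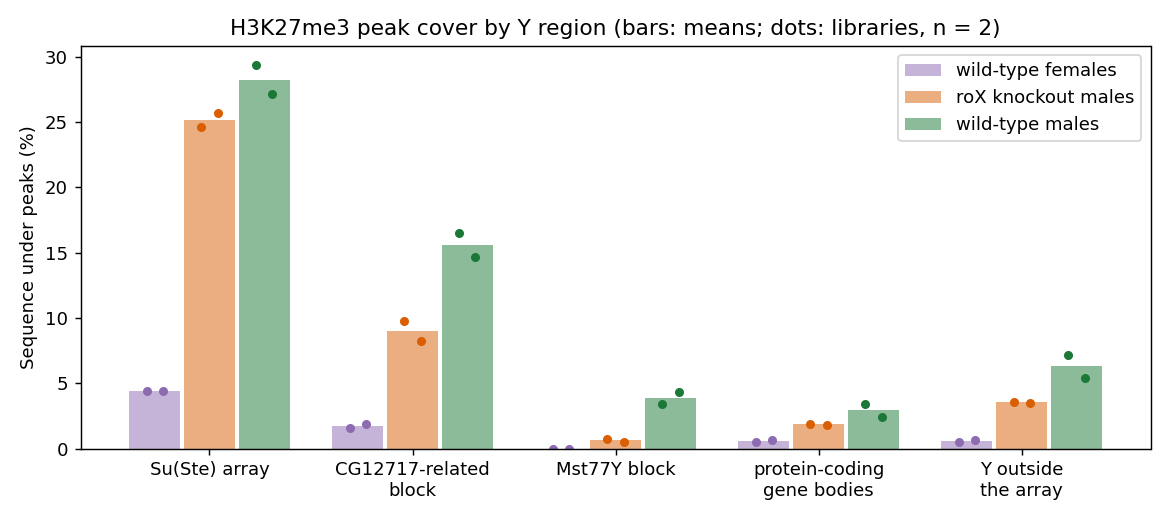
Percent of the sequence under H3K27me3 peaks in the main Su(Ste) array, the block of CG12717-related pseudogenes, the Mst77Y block, protein-coding gene bodies and the Y outside the array (bars, group means; dots, single libraries). The array is at 25.2% in knockout and 28.2% in wild-type males, and the Y outside it at 3.53% and 6.30%.

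A block near the far end of the assembled Y (3060612 to 3273532) holds 29 pseudogenes that the gene table names as related to CG12717. Peaks covered 1.71% ± 0.207 of this block in females, 8.99% ± 1.06 in knockout males and 15.6% ± 1.30 in wild-type males (SD, n = 2 each), a ratio of 0.578 between knockout and wild-type males. That was near the ratios of 0.620 for the whole Y and 0.560 for Y outside the Su(Ste) array. The values of this block and of the Mst77Y block below come from the full lists only. With lists of equal total length the ratio outside the array was 1.05. Of the 29 pseudogenes, 2 and 3 had a peak in knockout males, against 6 and 5 in wild-type males, and 0 had one in females. CR46150 (3258406 to 3259223) was covered over 100% in all 4 male libraries. CR46279 (3250355 to 3251252) was at 0% in both knockout libraries and at 0% and 86.3% in wild-type males, and CR46183 (3218291 to 3218817) was at 0% in both knockout libraries and at 90.5% and 0% in wild-type males, so that single wild-type libraries decided these.

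Among the pseudogenes of that stretch, CR41423 (3265434 to 3266598) had the largest difference in mean covered bases of the entries on Y outside the protein-coding genes. It was at 0% and 0% in knockout and at 96.1% and 80.1% in wild-type males. CR46170 (3136899 to 3137576) was at 0% and 0% in knockout and at 94.4% and 12.4% in wild-type males, and CR46152 (3272835 to 3273532) at 0% and 30.2% in knockout and at 46.3% and 82.1% in wild-type males. The last 2 of the entries with the largest changes, Su(Ste):CR42410 and Su(Ste):CR42429, had a peak only in wild-type male replicate 1, over 35.7% and 26.4% of the body.

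The neighbouring Mst77Y block (3284939 to 3376984) carries tandem copies of Mst77F, a gene for a protamine-like protein of sperm chromatin. Peaks covered 0% of it in females, 0.759% and 0.530% in knockout males, against 3.39% and 4.35% in wild-type males. Of its 18 genes and pseudogenes only CG45765 (3293606 to 3294480) had a peak, at 0% and 0% in knockout and at 40.2% and 28.2% in wild-type males. The 3 small protein-coding genes CG46191, CG46192 and CG46193 had no peak in any library. Most Y cover lay outside every annotated entry. The share of covered bases there was 80.4% and 78.4% in females, 80.9% and 81.7% in knockout males, against 82.5% and 83.1% in wild-type males. Such sequence makes up 70.0% of the Y span.

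The longest stretches covered in all 4 male and in neither female library, after joining gaps of up to 1 kb within each library, lay in and just before the Su(Ste) array. They were 3.81 kb at 851950 to 855760, 3.66 kb at 884056 to 887718 and 2.50 kb at 878746 to 881248, none of them inside an annotated gene, then 2.43 kb at 1034289 to 1036722 across Su(Ste):CR42425 and Su(Ste):CR42416, and 2.43 kb at 912826 to 915251, again outside any gene. In all, 88 such stretches summed to 70.9 kb. Stretches that both wild-type male lists covered and no knockout list did numbered 131 and summed to 55.6 kb. The longest measured 2.91 kb (2607276 to 2610181), 2.6 kb (3504684 to 3507286), 2.42 kb (2989691 to 2992114), 2.29 kb (2986126 to 2988410) and 1.73 kb (1359764 to 1361496). None of the 5 lay in a gene, and females had no peak in any of them. Such stretches, and those of the opposite pattern below, were counted on Y only, so no main-arm share stands beside their numbers.

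The opposite pattern, covered in both knockout and in neither wild-type male library, gave 29 stretches with 8.51 kb in all. The longest was 1.24 kb at 976490 to 977733, between copies of Su(Ste), of which the second knockout library covered 32.8% before gaps were joined. The next, 0.874 kb at 588523 to 589396 inside kl-2, was also covered over 67.5% and 97.9% in females. Stretches of 0.864 kb at 134630 to 135493 inside kl-5, 0.792 kb at 1036928 to 1037719 between Su(Ste):CR42416 and Su(Ste):CR42417, and 0.778 kb at 2704880 to 2705657 outside any gene followed, with no female peak.

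The Y peak leading by the authors' fold over background was not the same one in the lists of the male groups. The fold is the authors' own value and ranks peaks within 1 list only, so that ranks in different lists do not measure a change. In both knockout lists the leading Y peak lay at 322667 to 323979 and 322620 to 323979, between PRY and the pseudogene CR45946 at the near end of kl-3. It had a fold of 7.60 and 8.59 and ranked 4 of 6327 and 3 of 6189 peaks in its list, autosomes included. Both wild-type male lists held a shorter peak at the same place (322939 to 323833 and 322928 to 323833), with a fold of 1.59 and 1.75 that ranked 4307 of 5406 and 1769 of 4784. Females had no peak there. The nearest other Y peak lay 30.1 and 30.8 kb away in the knockout lists and 30.0 and 30.0 kb away in the wild-type male lists. Distances between other neighbouring Y peaks were not taken, so these do not set this peak apart.

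The other leading Y peaks were present in all 4 male libraries. At 1984904 to 1987333, outside any gene, the fold was 2.41 and 2.54 in females, 3.56 and 4.47 in knockout males, against 4.05 and 3.76 in wild-type males, and this was the only one of the strongest male peaks that females also had. At 912787 to 915290, within the Su(Ste) array, the fold was 3.02 and 4.37 in knockout and 3.72 and 3.10 in wild-type males. At 846206 to 848857 it was 3.25 and 4.09 in knockout and 4.08 and 2.86 in wild-type males. At 2640518 to 2643682 it was 3.47 and 4.82 in knockout and 3.33 and 2.70 in wild-type males. The last 3 had no female peak. The remaining leading peaks of the female lists were short. The one at 742410 to 742895 had a fold of 2.41 and 2.26 in females and 1.68 and 1.58 in wild-type males and met no knockout peak, and the other 2 lay inside kl-3 (557285 to 557542) and Ppr-Y (1672138 to 1672471).

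The female peaks on Y almost all sat where males had peaks too. All 30 of female replicate 1 and 38 of the 40 of replicate 2 met a peak of at least 1 male library by 1 bp or more, and 11 and 13 met one in all 4. Of the 40.03 kb covered in either female library, 82.6% was covered in at least 1 male library. Both female libraries shared 15.6 kb, of which 95.6% was covered in some male library. The longest stretches covered in both female libraries were 2.22 kb at 955656 to 957876 within the Su(Ste) array, 2.08 kb at 1984931 to 1987010, 2.04 kb at 1019992 to 1022026, which includes a joined gap, and 1.42 kb at 994369 to 995789, both again within the array, and 1.08 kb at 2242046 to 2243121. The stretch at 994369 had 0% in both knockout libraries and 59.8% and 0% in wild-type males. Although 6 and 7 female peaks fell within the array, none touched a Su(Ste) copy. Of the bases covered in all 4 male libraries, 11.5% was also covered in a female library, so 67.7 kb was recurrent in males and had no female peak.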

How the data were processed

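Per the submitters' processing notes, reads were handled with Bowtie2 2.4.5, Trimmomatic 0.39, deepTools 3.5.1, SAMtools 1.13 and Picard on dm6. Which peak caller was run, and how the 3 inputs entered, is not given in the sources used. Broad peaks were deposited for each library separately. Each deposited peak has a display score, a fold enrichment and values of −log10 p and −log10 q, all set by the authors, and every −log10 q was at least 1. The lists hold no read counts, so depth is unknown. It limits how many weak peaks can be called.

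Peaks were merged per library. Gene positions came from the RefSeq table for Release 6, the coordinates of dm6. Bins of 10 kb and gene bodies were called lower or higher when both libraries of a group lay beyond both of the other. limma 3.58.1 in R 4.3.3 on the covered percent was an alternative. It was tested on simulated data with less noise than lay between the wild-type male libraries and larger drops than in the Y bins called. That test does not show how well limma does on these lists. Values per library were tested by exact permutation (SciPy 1.17.1). Other alternatives were −log10 q of at least 3, fold of at least 1.5, joined gaps, equal list lengths, removal of bases covered in females, other bin widths, marks at 50% or 20% of a gene body, other denominators and each library left out. Named were the protein-coding genes of Y, the 10 other entries with the largest change in mean covered bases, the 5 longest stretches of each pattern and the 3 Y peaks of highest fold per list. The members, lists and tests were chosen with earlier results of these data known. The Su(Ste) array was set against the rest of Y, with its alternatives, after its values were seen.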

Additional observations from a re-analysis of the deposited data

Results flagged for a closer look

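Peaks on unplaced scaffolds assigned to Y, which took no part in the comparisons, covered 28.6 kb on average over the 4 male libraries, above the female level. The covered length was 0.635 and 0.781 kb in wild-type females, 23.9 and 19.1 kb in roX knockout males and 41.5 and 29.9 kb in wild-type males, from 1 and 1, 17 and 16, and 31 and 22 peaks. The knockout and wild-type male libraries did not overlap there, and the difference was not tested.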

How the results depend on the processing

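Of 109 values under alternatives, 82 kept their direction or stayed within 1.5 times the value reported, 22 counts or lengths moved beyond that and 5 turned round. The lower Y cover of females held under each alternative run for it. For knockout against wild-type males, lists of equal total length turned the log2 ratio of Y cover to 0.031, that of the number of Y peaks (-0.35) to 0.47 and that of the Su(Ste) array over the rest of Y to -0.13. Those lists reached down to a lower −log10 p in knockout than in wild-type males. The difference in the log2 ratio of Y to the large autosomal arms was 0.00352 at −log10 q of at least 3, -0.08 with equal lengths and 0.86 against X. The causes were not tested.

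The 69 lower bins of 168 became 26 of 92 at that −log10 q and 25 of 145 with equal lengths. With limma they became 3 of 168, and 0 of 168 with the replicate block (27 lower and 2 higher at an unadjusted p under 0.05). The 13 higher bins of 168 became 5 of 92, 22 of 145, 0 and 0 in the same order, and 8 of 113 with bins of 20 kb. The 10 genes of 35, all lower, became 6 lower and 3 higher of 29 with equal lengths. They became 3 lower of 35 when called by marks at 50% or at 20% of the body, and 3 of 6 among protein-coding genes. With limma, with or without the block, they became 0 of 35 (3 at an unadjusted p under 0.05 in each). Main-arm shares were not taken at that −log10 q, with equal lengths or with bins of 20 kb. Nor were they taken for marks at 20% or for protein-coding genes alone. The 76.4 kb covered in all 4 male libraries became 33.4 kb at −log10 q of at least 3.

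Leaving out 1 library moved the log2 ratio of Y cover between -0.86 and -0.50, that of Y to the large arms between -0.57 and -0.29, that of the number of peaks between -0.52 and -0.16, and the array difference between 0.51 and 0.80. It moved the lower bins between 83 and 117, the higher bins between 19 and 30, the genes of either direction together between 15 and 20 (11 to 19 lower and 1 to 4 higher), and the length covered in all remaining male libraries between 82.4 and 109 kb. Without wild-type male replicate 2 there were 117 lower bins, and 19 lower genes with 1 higher. Leaving out either knockout replicate gave 19 genes in both directions together. The higher bins were 30 and 20 when knockout replicates 1 and 2 were left out in turn, and 23 when replicate 1 of wild-type males was. These counts, and the length covered in all remaining male libraries, could only rise or stay when a library was left out. A single library meets the no-overlap rule more easily than 2 do, so the rise does not measure dependence on that library. The log2 ratio of females to wild-type males lay between -3.44 and -3.08 and that of females to knockout males between -2.72 and -2.45.

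The replicate numbers are shared by the groups, but the labels name no shared animal, batch or day, and same-numbered libraries did not deviate together (correlation -0.07 over 6267 bins). With the number as a block, the log2 ratio of Y cover was -0.68, that of peak number -0.34, that of Y to the large arms -0.43, and those of females -3.27 and -2.59 (exact sign-flip p = 0.5, the smallest 2 pairs allow). Without read counts, a Y position without a peak was not detected at an unknown depth.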
